A study of Mus musculus with 21 samples.

Results

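The genes described here encode subunits of the mitochondrial respiratory chain and of ATP synthase, taken as all genes whose symbol on the array begins in the way that names these subunits (Nduf a, b, c, s and v, Sdha to Sdhd, Uqcr, Cox4 to Cox8, Atp5). Only probe sets with a single gene symbol were used, and each gene was represented by its brightest probe set over all arrays. This gave 79 of the 18194 genes measured: 33 of complex I, 4 of complex II, 8 of complex III, 17 of complex IV and 17 of complex V. Ndufa4 and Ndufa4l2 carry complex I names and were counted with complex IV, where the Ndufa4 protein resides.

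The RNA came from CGR8 cells, an established mouse embryonic stem cell line, and from embryoid bodies, the aggregates in which such cells begin to form the germ layers. Undifferentiated cells (day 0) were kept in a medium the labels give as 10% GMEM, and all aggregates in 20% IMDM. Aggregates were started as hanging drops (500 cells in 25 µL), went to a shaker after day 2, and were collected at days 2, 3 and 5 either untreated (control) or with ascorbic acid (vitamin C) at 100 µM. With 3 biological replicates in each of 7 groups there were 21 arrays. The arrays are a selected set, from cultures that went on to give more beating aggregates with ascorbic acid, and the cells are 1 line. Medium, aggregation and time changed together between day 0 and day 2.

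In the inner mitochondrial membrane, complex I takes electrons from NADH and complex II takes them from succinate. Complex III passes them through cytochrome c to complex IV, which reduces oxygen, and the proton gradient built on the way drives ATP synthase, complex V. Pluripotent cells make much use of glycolysis, and heart muscle is among the tissues richest in respiratory chain. Most subunits are nuclear genes, all those counted here among them, and the core subunits made from mitochondrial DNA were not analysed here. Several complex IV subunits have tissue isoforms: Cox6a2, Cox7a1 and Cox8b in heart and skeletal muscle, Cox6b2, Cox7b2 and Cox8c in testis. Ndufa4l2 is an isoform known for its induction in hypoxia. NRF1, GABPA (an ETS factor) and YY1 are known regulators of nuclear respiratory genes.

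Promoters are shown for 6 members on which later results turn, as the bases directly before the RefSeq start in build GRCm38.p6, read 5′ to 3′ on the gene's strand. Atp5g1, Atp5g2 and Atp5g3 come first because they encode the same mature c subunit of the ATP synthase rotor, with different import presequences. Capitals mark matches, on either strand, to the NRF1 letters GCGCATGCG, the ETS core CCGGAAG (or its longer form CCGGAAGT), the YY1 letters AAGATGGC and the E-box CACGTG. The letters CCAAT were searched too and are not capitalised in the promoters.
Atp5g1: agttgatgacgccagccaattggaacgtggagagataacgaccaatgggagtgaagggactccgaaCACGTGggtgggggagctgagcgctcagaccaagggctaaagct
Atp5g2: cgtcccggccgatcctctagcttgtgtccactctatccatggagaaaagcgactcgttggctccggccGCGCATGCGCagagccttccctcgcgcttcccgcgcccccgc
Atp5g3: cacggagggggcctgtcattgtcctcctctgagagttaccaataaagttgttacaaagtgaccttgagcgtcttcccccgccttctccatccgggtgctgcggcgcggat
Atp5k: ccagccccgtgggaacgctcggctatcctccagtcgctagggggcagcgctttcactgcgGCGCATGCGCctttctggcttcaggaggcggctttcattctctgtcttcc
Cox6a1: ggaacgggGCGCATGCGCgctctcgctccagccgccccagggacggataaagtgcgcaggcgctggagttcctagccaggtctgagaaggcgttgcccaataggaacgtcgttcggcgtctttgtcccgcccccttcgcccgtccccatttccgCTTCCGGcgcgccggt
Sdhd: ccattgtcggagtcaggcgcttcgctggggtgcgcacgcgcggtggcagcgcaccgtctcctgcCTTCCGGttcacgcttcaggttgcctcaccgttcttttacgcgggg
These stretches lie on the minus strand, at chr11:96075632-96075741 (Atp5g1), chr15:102671048-102671157 (Atp5g2), chr2:73911327-73911436 (Atp5g3), chr5:108434400-108434509 (Atp5k), chr5:115348959-115349128 (Cox6a1) and chr9:50603850-50603959 (Sdhd). Each stretch is 110 bases long, except 170 for Cox6a1, whose NRF1 match lies at -162 from the start. In the stretches shown Atp5g1 has an E-box and CCAAT, Atp5g2 an NRF1 match and Atp5g3 only CCAAT. Beyond its stretch Atp5g3 also has an E-box, at -238, so an E-box does not set Atp5g1 apart from Atp5g3. Cox6a1 carries both an NRF1 and an ETS match. The NRF1 motif is nearly its own mirror image, so that where a match is followed by C it counts on both strands 1 base apart.

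The RefSeq promoter table held 71 promoters of 66 members, from 250 bases before to 50 bases after each start. The NRF1 letters occurred in 9.86% of them (95% Wilson interval 4.86 to 18.98), in 1.75% of all 32851 promoters and in 2.70% of those of the genes tested here. The 7 genes with a match were Atp5g2, Atp5k, Atp5l, Cox6a1, Ndufa8, Uqcr11 and Uqcrc1. The ETS core stood in 23.94% of member promoters, in 8.86% of all and in 13.04% of those of tested genes. Its 8-letter form, which is counted within the core, stood in 7.04%, 3.89% and 5.86%. YY1 letters stood in 12.68%, 2.75% and 3.39%, and 8 of the 9 member matches lay at or after the start. CCAAT (40.85%, 37.41% and 37.40%) and the E-box (9.86%, 7.15% and 8.74%) were about as frequent in members as in all promoters. A match describes letters, and no binding was measured.

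Respiratory chain transcripts were among the brightest by their mean over the 21 arrays, and their group means spread about as much as those of all genes. The median member lay at the 96.76th percentile of gene levels, and 65 of 79 lay above the 90th. On the log2 scale, where a difference of 1 is 2-fold, 63 members had a mean above 10. The 9 under 8 were the isoforms Cox6a2, Cox6b2, Cox7a1, Cox7b2, Cox8b and Ndufa4l2, together with Cox7c, Ndufb1 and Ndufb4. Ndufb4 read between 3.91 and 4.49 on the 21 arrays, near the low end of the signals (under 4.87, the 25th percentile), so that no fold is given for it. Over the 7 group means, 52 members spanned less than 0.5 and 76 less than 1, spans that were not counted for all genes. The median SD of the group means was 0.153 for members and 0.156 for all genes.

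**Figure D1:**
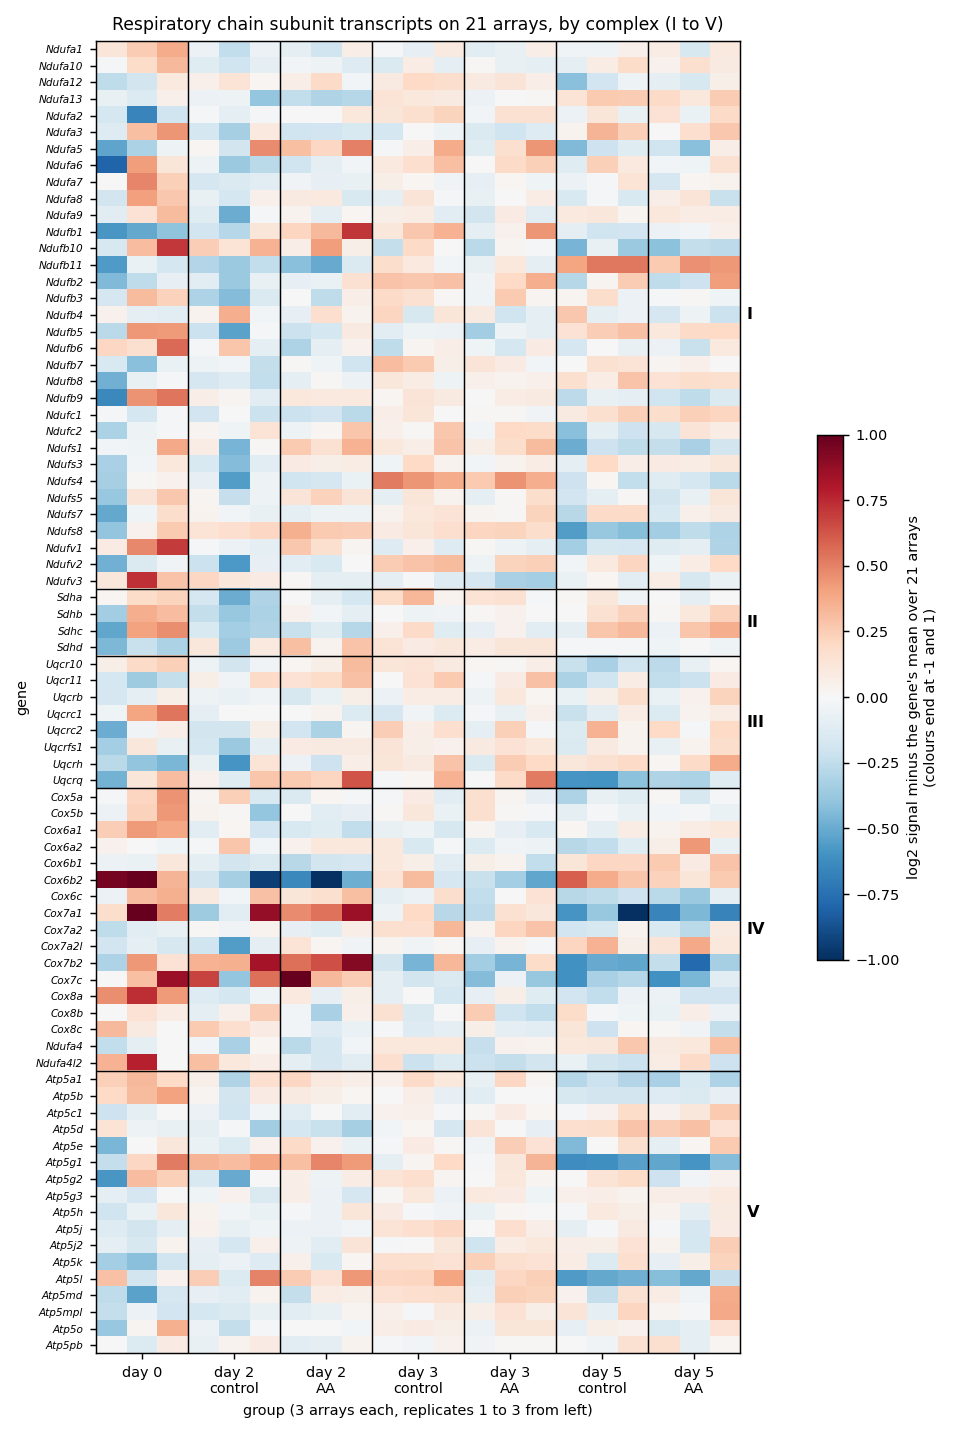
Log2 signal of each of 79 subunit genes minus its mean over 21 arrays, with genes in rows by complex (I to V) and arrays in columns by group, replicates 1 to 3 from the left. Most rows are pale, and the strong colours sit in a few genes such as Cox6b2, Cox7a1, Cox7b2 and Cox7c of complex IV and in day 0 replicate 1.

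Shifts of the chain as a whole were small. Averaged over all 79 members, deviations from each gene's mean ran from -0.15 to 0.15 at day 0, from -0.15 to 0.00 in day 2 controls, from 0.05 to 0.07 in day 3 controls and from -0.12 to -0.01 in day 5 controls. Day 3 controls thus lay above all day 2 and day 5 controls as deposited. They overlapped with day 2 controls after renewed quantile normalisation and with day 5 controls after median centring. Day 0 was the highest group for 23 members and the lowest for 21. Day 2 controls were lowest for 18 members and day 5 controls for 20, while day 3 controls were highest for 15 and lowest for 1. Day 0 replicate 1 stood apart from its group, with a mean correlation of 0.968 with the other day 0 arrays against 0.979 and 0.978 for replicates 2 and 3. It was the low array at day 0 for complexes I, II, III, IV and V. Day 2 control replicate 2 was likewise the low array of its group for each complex, at -0.15 over all members.

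**Figure D2:**
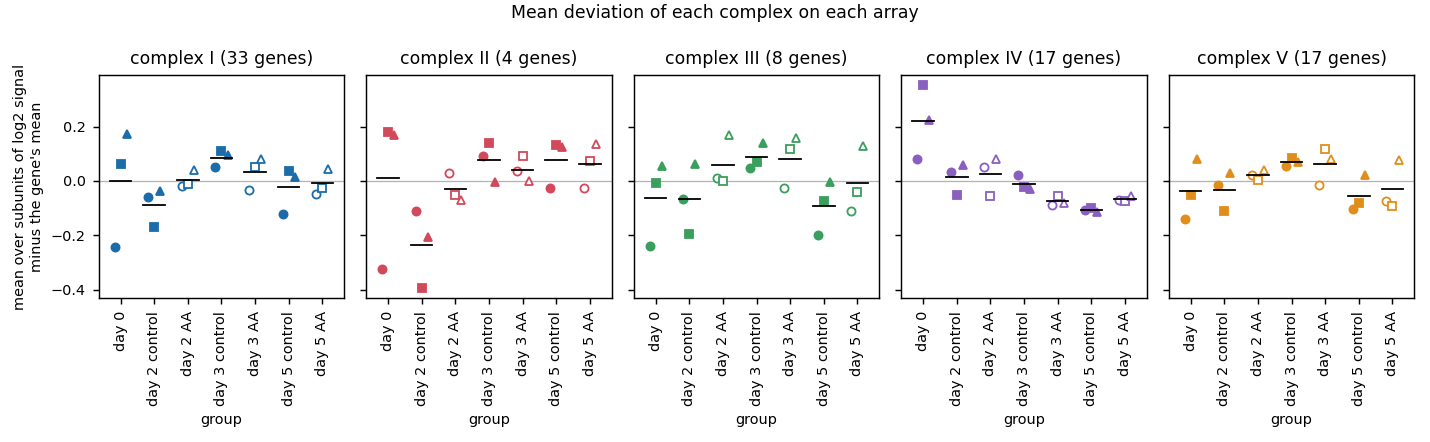
Mean over the subunits of each complex of the log2 signal minus the gene's own mean, for each array (circle, square and triangle for replicates 1, 2 and 3, open for ascorbic acid), with a bar at the group mean. Complex IV runs from 0.08 to 0.35 at day 0 and from -0.11 to -0.10 in day 5 controls, and complex II from -0.39 to -0.11 in day 2 controls.

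Complexes differed in their course. Complex IV averaged 0.22 ± 0.14 (SD, n = 3) above its mean at day 0. By day 5 the controls averaged -0.11 ± 0.01, and the arrays of these groups did not overlap. Genes with a mean under 8 weighed heavily here: Cox7a1 went from 7.10 to 5.75 and Cox7c from 7.34 to 6.55. Of the 17 genes, 13 read lower by day 5 and 4 higher. Among those with a mean above 10, Cox5a, Cox5b, Cox6a1, Cox6c and Cox8a read lower. Cox6b1, Cox7a2, Cox7a2l and Ndufa4 read higher. Complex II was lowest in day 2 controls, at -0.24 ± 0.15, and stood at 0.08 ± 0.07 in day 3 controls. Complex V stayed between -0.05 and 0.07 in all group means. Day 0 also lay above day 5 for complex IV without overlap, and day 2 controls were lowest for complex II, after renewed quantile normalisation or median centring of the arrays. These are descriptions over the genes of a complex, which share arrays, and carry no test.

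Between undifferentiated cells and day 2 aggregates, 10 of 79 members fell and 0 rose. All genes called in this step were 11.8% of those tested, 4.80% higher and 6.99% lower, so the share of members called (12.7%) was near that of all genes. The falls lay in complex IV (Cox6b2, Cox8a, Cox6a1), complex I (Ndufv1, Ndufb3, Ndufa7, Ndufa1), complex II (Sdha, Sdhb) and complex V (Atp5b). A gene was called where limma's p, adjusted by Benjamini-Hochberg across the 18194 genes, was under 0.05. Errors of differences are standard errors, and n = 3 arrays per group throughout. In bulk RNA, fewer cells of a type and less RNA per cell cannot be told apart.

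Cox8a, the ubiquitous form of the smallest complex IV subunit, read 11.78, 12.05 and 11.74 at day 0, then 11.18, 11.14 and 11.27 in day 2 controls. All later arrays lay between 11.07 and 11.41, so the day 0 arrays stood alone above the rest. The difference was -0.66 ± 0.10 (adjusted p = 0.000182). The 2 other probe sets of Cox8a gave -0.62 and 0.04, the latter at a mean level of 6.21.

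Cox6b2, the testis form of a subunit that caps complex IV, read 8.76, 9.35 and 8.14 at day 0, then 7.62, 7.47 and 6.86 in day 2 controls. It fell by 1.43 ± 0.25 (adjusted p = 0.00109), the largest change of a member in this step. Its level was 7.94, 8.12 and 7.63 in day 3 controls and 8.40, 8.17 and 8.08 in day 5 controls, and neither later step passed the test. Of 10 germ cell and testis markers, 0 passed in the day 0 to day 2 step, and their mean level ran from 6.44 to 6.72 at day 0 and from 6.38 to 6.82 at day 2.

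Cox6a1, whose promoter above holds the NRF1 and ETS letters, is the broadly expressed form of its subunit. It read 13.37, 13.55 and 13.51 at day 0, against 13.02, 13.14 and 12.93 in day 2 controls, without overlap, and fell by 0.45 ± 0.07 (adjusted p = 0.00055). Atp5b, the catalytic beta subunit of ATP synthase, read 13.09, 13.21 and 13.29 and then 12.92, 12.71 and 12.97. It fell by 0.33 ± 0.07 (adjusted p = 0.00509). Its partner in the catalytic head, Atp5a1, read lower too, from 12.83 ± 0.07 (SD) at day 0 to 12.55 ± 0.25 in day 2 controls, but did not pass. The difference between the 2 genes was not tested.

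In complex I, Ndufv1, which holds the NADH site, read 10.97, 11.37 and 11.59 at day 0, then 10.87, 10.83 and 10.79 in day 2 controls. It fell by 0.48 ± 0.12 (adjusted p = 0.0137), with day 0 replicate 1 only just above day 2. The accessory subunits Ndufb3, Ndufa7 and Ndufa1 fell by 0.42, 0.38 and 0.37. In complex II, Sdha, the flavin subunit that oxidises succinate, read 10.88, 11.04 and 11.08 and then 10.69, 10.36 and 10.56. It fell by 0.46 ± 0.10 (adjusted p = 0.00551). Sdhb, the iron-sulfur subunit, fell by 0.42 ± 0.13 (adjusted p = 0.0479), with 10.40, 11.11 and 11.06 at day 0, so that replicate 1 lay among the day 2 values of 10.51, 10.37 and 10.43.

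The size of this count varied with the day 0 arrays and the fit. With day 0 replicate 1 left out, 23 members fell and 1 rose, beside 3713 of all 18194 genes called. Without replicate 2 the count was 5 and without replicate 3 it was 6, all falls, beside 1122 and 1420 of all genes. With all arrays 2144 genes were called. Atp5b, Cox6a1, Cox6b2, Cox8a and Sdha were called whichever single array was left out, but a fit on the day 0 and day 2 control arrays alone called 0 of 79, with adjusted p of 0.0647 for Cox8a, 0.0789 for Cox6b2, 0.0851 for Cox6a1 and 0.197 for Atp5b. Renewed quantile normalisation gave 17 calls and array weights 27, and the counts over all genes in these fits are not given here. The difference between the 3′ and 5′ Actb probe sets, a sign of RNA quality, was 0.79 to 0.87 at day 0 and 0.94 to 1.40 in day 2 controls, and its part in the falls was not tested. The 1.40 was day 2 control replicate 2, the low array of its group for each complex.

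From day 2 to day 3, when aggregates were on the shaker, 3 of 79 members rose and 0 fell, beside 5.81% of all genes called (4.86% higher, 0.945% lower). Ndufs4, an accessory subunit needed for complex I assembly, read 9.96, 9.48 and 9.99 in day 2 controls and 10.56, 10.48 and 10.41 in day 3 controls. It rose by 0.67 ± 0.13 (adjusted p = 0.00535) with no overlap. Ndufv2, an iron-sulfur subunit next to Ndufv1, read 10.95, 10.59 and 11.08 and then 11.42, 11.45 and 11.48, a rise of 0.58 ± 0.13 (adjusted p = 0.012). Sdha read 11.04, 11.19 and 10.89 at day 3, 0.50 ± 0.10 above day 2 (adjusted p = 0.00675) and back at its day 0 range. The day 2 control group is shared with the step before, so the fall and the rise of Sdha rest in part on the same 3 arrays. The other probe sets of the 3 called members, those above the low end of the signals, had the same sign in 5 of 6 cases. Array weights raised the count from 3 to 28, and a fit on the arrays compared alone gave 5, with the counts over all genes not given here. Without day 3 control replicate 2 only Ndufs4 remained called, and without replicate 3 there were 5 calls, 4 of them rises. Over all genes the 1057 calls became 258 and 1054 under these omissions. The Actb difference was 0.96 to 1.05 in day 3 controls. Day 2 control replicate 2, at 1.40, held the lowest day 2 control readings of Ndufs4, Ndufv2 and Sdha.

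From day 3 to day 5, when the pluripotency factor Pou5f1 dropped from a mean of 11.65 ± 0.06 to 6.51 ± 0.29 (SD), 11 of 79 members fell and 1 rose. All genes called were 18.3% of those tested, 9.08% higher and 9.24% lower, against 15.2% of the members. Falls lay in complex I (Ndufs4, Ndufs8, Ndufs1, Ndufa12, Ndufc2), complex III (Uqcrq, Uqcr10), complex IV (Cox7a2) and complex V (Atp5l, Atp5g1, Atp5a1), and the rise was Ndufb11 of complex I. Complex II had 0 called of 4. Called members moved less than called genes in general: their median size was 0.44 against 0.75, and 0 of 12 passed a log2 difference of 1, as 31.2% of all 3333 called genes did. Only called genes enter these medians, and the size that passes depends on a gene's standard error, at a median of 0.12 for members.

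The largest fall was in Atp5l, the g subunit at the ATP synthase dimer interface. It read 11.28, 11.29 and 11.47 in day 3 controls and 10.51, 10.56 and 10.59 in day 5 controls. The groups lay well apart, with a difference of -0.79 ± 0.15 (adjusted p = 0.000591).

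Within the c-subunit trio, Atp5g1 read 10.58, 10.71 and 10.88 at day 3 and 10.06, 10.07 and 10.14 at day 5. All day 5 controls lay below all day 3 controls, a fall of 0.63 ± 0.14 (adjusted p = 0.00292). Atp5g2 read 11.92, 11.95 and 11.81 and then 11.78, 11.92 and 11.97, a difference of 0.00 (95% interval -0.35 to 0.34). Atp5g3 read 12.94, 13.03 and 12.87 and then 12.98, 12.99 and 12.96, a difference of 0.03 (-0.12 to 0.18). Both groups overlapped for Atp5g2 and Atp5g3, and the upper bound for Atp5g1 was -0.34. The difference between the 3 genes was not itself tested.

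In complex I, Ndufs8, an iron-sulfur subunit on the path to ubiquinone, read 11.22, 11.26 and 11.30 at day 3 and 10.58, 10.76 and 10.71 at day 5. It fell by 0.58 ± 0.12 (adjusted p = 0.00117), and its 5 other probe sets gave -0.57, -0.57, -0.52, -0.43 and -0.25. Ndufs4 returned to 9.83, 10.06 and 9.79, below every day 3 array, a fall of 0.59 ± 0.13 (adjusted p = 0.00299). Ndufs1, the largest iron-sulfur subunit of complex I, read 9.95, 9.91 and 10.13 and then 9.35, 9.64 and 9.59, a fall of 0.47 ± 0.14 (adjusted p = 0.0253). Against these, Ndufb11 of the membrane arm read 11.75, 11.67 and 11.55 and then 11.97, 12.10 and 12.10, a rise of 0.40 ± 0.12 (adjusted p = 0.0207), with 0.37 and 0.43 at its 2 other probe sets.

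Uqcrq, a small complex III subunit near the ubiquinone site, read 10.10, 10.14 and 10.47 and then 9.53, 9.52 and 9.71, a fall of 0.65 ± 0.18 (adjusted p = 0.0142). Its 3 dimmer probe sets gave 0.13, -0.07 and -0.20, so the fall rests on the brightest. Atp5a1, the catalytic alpha partner, read 12.62, 12.76 and 12.68 and then 12.29, 12.36 and 12.28, without overlap, a fall of 0.38 ± 0.10 (adjusted p = 0.0106). Uqcrfs1, the Rieske protein, and Uqcrc1 of complex III and Cox5a and Cox5b of complex IV did not pass, with differences of -0.09, 0.02, -0.15 and -0.08.

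**Figure D3:**
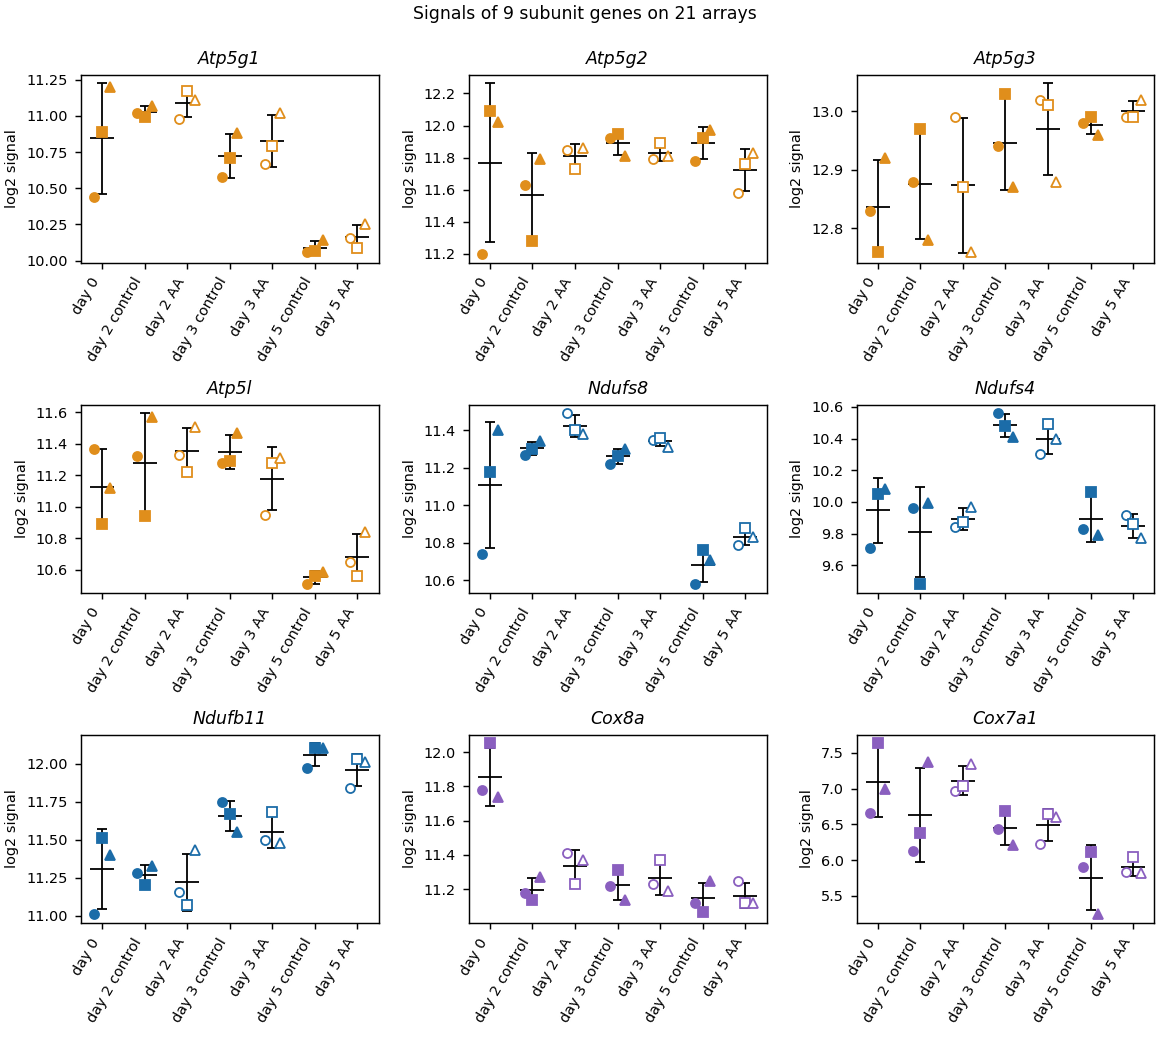
Log2 signal of 9 subunit genes on each of the 21 arrays (circle, square and triangle for replicates 1, 2 and 3, open for ascorbic acid), with the group mean and SD in black. Atp5g1, Atp5l and Ndufs8 drop at day 5 in both arms, Ndufb11 climbs, Ndufs4 peaks at day 3, and Cox8a is above 11.7 on the day 0 arrays alone.

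Treated aggregates passed through the same step on other arrays, which are not independent of the controls, since same-numbered treated and control arrays deviated together at days 3 and 5 (r of 0.213 to 0.679). From day 3 to day 5 with ascorbic acid, 7 members fell and 2 rose, beside 18.1% of all genes called (9.21% higher, 8.92% lower). Of the 12 members called in controls, 8 were called in the same direction in treated aggregates (66.7% of the control calls and 88.9% of the treated calls), and all 12 had the same sign. Over all genes called in controls, 78.0% were called in the same direction in treated aggregates (78.9% of the treated calls) and 99.6% had the same sign. The members' share was thus lower than that of all genes among control calls and higher among treated calls, on 12 and 9 calls. The 8 were Atp5a1, Atp5g1, Atp5l, Cox7a2, Ndufb11, Ndufs1, Ndufs4 and Ndufs8. Treated Atp5g1 read 10.67, 10.79 and 11.02 at day 3 and 10.16, 10.09 and 10.25 at day 5, a fall of 0.66 ± 0.14 (adjusted p = 0.0021). Atp5l fell by 0.50 ± 0.15, Ndufs8 by 0.51 ± 0.12 and Ndufs4 by 0.55 ± 0.13, and Ndufb11 rose by 0.41 ± 0.12. Cox6b1 was the treated call that controls did not share.

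**Figure D4:**
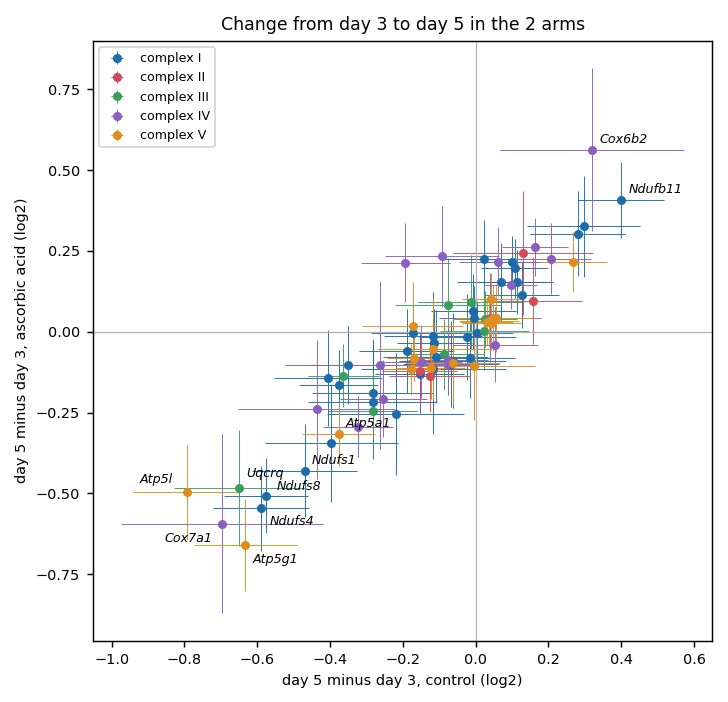
Difference between day 5 and day 3 (log2) in control aggregates (horizontal) and in aggregates with ascorbic acid (vertical), 1 point per subunit gene with standard errors, coloured by complex. Atp5g1, Atp5l, Ndufs4 and Ndufs8 lie at the lower left and Ndufb11 at the upper right.

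Single arrays moved these counts. In controls the count of 12 became 6 without day 3 replicate 3 and 7 without day 5 replicate 1, while Atp5g1, Atp5l, Ndufs4 and Ndufs8 were called under each omission. Over all genes the 3333 control calls became 2224 and 2618. In treated aggregates the count of 9 became 5 after median centring, 5 and 3 without day 3 replicates 2 and 3, and 4, 5 and 5 without day 5 replicates 1, 2 and 3. For the same omissions the 3298 treated calls over all genes became 2760 and 2183, then 2640, 2427 and 2930. The other probe sets of the members called in controls, those above the low end of the signals, had the same sign in 22 of 23 cases.

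In treated aggregates Ndufs4 also rose from day 2 to day 3, by 0.50 ± 0.13 (adjusted p = 0.0314), and the testis isoform Cox7b2 was called lower (adjusted p = 0.0173). These were 2 calls of 79 beside 4.69% of all genes (3.41% higher, 1.29% lower). Of the calls of this step in controls, Ndufs4 was shared (33.3% of the 3 control calls and 50% of the treated calls, against 49.1% and 60.8% over all genes). Of the 3 other Ndufs4 probe sets, 2 had the same sign in the treated step and 1 the opposite. Cox7b2 lay at 4.10, 3.98 and 4.63 at day 3, all near the low end of the signals, so no size is given for its difference. Neither call was stable: Ndufs4 was lost under every omission, so that 1 call (Cox7b2) was left without treated day 2 replicate 1 or 2 or day 3 replicate 3, and 0 without day 2 replicate 3 or day 3 replicate 1 or 2. Calls over all genes, 854 with all arrays, ran from 217 to 874 under these omissions. From day 0 to treated day 2, 9 members fell and 6 rose, beside 13.7% of all genes (7.42% higher, 6.27% lower). Cox6b2 (-1.76 ± 0.25), Cox6a1 (-0.53 ± 0.07) and Cox8a (-0.52 ± 0.10) fell here too, against the same day 0 arrays as in controls. The largest rises were Ndufb1 (0.91 ± 0.15), Ndufa5 (0.64 ± 0.18) and Sdhd (0.54 ± 0.11). This count of 15 became 3 in a fit on the arrays compared alone, 24 without day 0 replicate 1, 7 without day 0 replicate 2, and 7, 8 and 7 without treated replicates 1, 2 and 3. Over all genes the 2491 calls became 3562 and 1586 without those day 0 replicates. They became 1724, 1675 and 1889 without those treated replicates.

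From day 0 to day 5 in controls, 21 members fell and 10 rose, beside 29.9% of all genes called (15.9% higher, 14.0% lower). The members called were 39.2% of 79. In complex IV 8 of 17 fell and 1 rose. In complex I 6 of 33 fell and 6 rose, shares near those of all genes, and complexes II, III and V had 0, 3 and 4 falls and 1 rise each. A fit on the day 0 and day 5 control arrays alone called 13 of the 79, 11 lower and 2 higher. This comparison shares its arrays with the steps above and adds no independent support to them.

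Cox7a1, the muscle form of its subunit, fell most. It read between 6.66 and 7.63 at day 0, then 6.13, 6.38 and 7.37 at day 2, 6.44, 6.69 and 6.21 at day 3, against 5.90, 6.11 and 5.24 in day 5 controls. Day 0 and day 5 did not overlap, and the fall was 1.35 ± 0.28 (adjusted p = 0.000783), while no single step passed the test. Over the same span 4 of 16 cardiomyocyte markers rose and 1 fell, with array means of 5.97 to 6.10 at day 0 and 6.18 to 6.56 at day 5. Of 8 skeletal muscle markers 1, Tnnt3, rose, and Myf5, Myog and Myh3 were near the low end of the signals on both days.

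Atp5g1 read 0.75 ± 0.14 lower at day 5 than at day 0 (adjusted p = 0.000309), against 0.12 (95% interval -0.23 to 0.47) for Atp5g2 and 0.14 (-0.01 to 0.29) for Atp5g3. Cox8a fell by 0.71 ± 0.10 and Ndufv1 by 0.64 ± 0.12, both called under every omission. Cox7c, a ubiquitous complex IV subunit read here at a mean level of only 6.96, fell by 0.79 ± 0.26. Its call was lost without day 0 replicate 3 or day 5 control replicate 1. Among the rises, Ndufb11 stood first, at 0.75 ± 0.12 (adjusted p = 4.7e-05), from 11.01, 11.51 and 11.40 to 11.97, 12.10 and 12.10. Uqcrh, the hinge subunit that helps cytochrome c dock on complex III, rose by 0.53 ± 0.15, from 11.25, 11.12 and 11.06 to 11.63, 11.67 and 11.71. Ndufb8, Cox7a2l, Atp5k and Ndufa2 rose by 0.34 to 0.36, and Atp5k and Uqcrh were called under every omission. In the fit on the arrays compared alone, Ndufb11 and Uqcrh passed, while Ndufb8, Cox7a2l, Atp5k and Ndufa2 did not. Cox7a2l is a factor of supercomplex assembly, and Atp5k is the e subunit that neighbours Atp5l in the ATP synthase dimer, while Atp5l fell by 0.57 ± 0.15.

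The other tissue isoforms moved little or fell. Cox6a2 and Cox8b, the remaining muscle forms, lay between 5.90 and 6.90 on all 21 arrays and passed in no step. Testis Cox8c lay between 8.56 and 9.12 and passed in no step. Testis Cox7b2 was called lower over this span, but it read 4.14, 4.88 and 4.59 at day 0 against 3.84, 3.94 and 3.93 in the day 5 control arrays, near the low end of the signals. Over the same span 6 of 10 germ cell and testis markers fell, from array means of 6.44 to 6.72 down to 4.85 to 5.01, and their part in the fall of Cox7b2 was not tested. Ndufa4l2 read 7.94, 8.37 and 7.60 at day 0 and 7.53, 7.41 and 7.38 at day 5, a fall of 0.53 ± 0.16 (adjusted p = 0.0136). Its call was lost without day 0 replicate 2, the 8.37 array. Of 7 other mitochondrial genes under control of hypoxia-inducible factors, 3 (Pdk1, Higd1a and Lonp1) fell over this span and 0 rose. Pdk1 was lower by 1.95 ± 0.19. Over this span 14.0% of all genes were called lower and 15.9% higher.

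No member passed for ascorbic acid in the unpaired limma fit. At day 2, 0 of 79 were called (0.00550% of all genes were), with 10 at an unadjusted p under 0.05. With array weights the day 2 count became 10, 6 higher and 4 lower, and the count over all genes in that fit is not given here. At day 3 the counts were 0 (0% of all genes) and 0, and at day 5 they were 0 (0.0605%, 0.0440% higher and 0.0165% lower) and 2. The average over the days gave 0 (0.0275%, 0.0165% higher and 0.0110% lower) with 3 at an unadjusted p under 0.05, and the F test for a difference between days gave 0 (0.00550%) with 1. The 95% interval of the effect lay within 1.5-fold in either direction for 69, 76 and 75 members at days 2, 3 and 5. It lay within 2-fold for 78, 79 and 79, the exception being Cox7a1 at day 2 (0.48, -0.10 to 1.06).

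**Figure D5:**
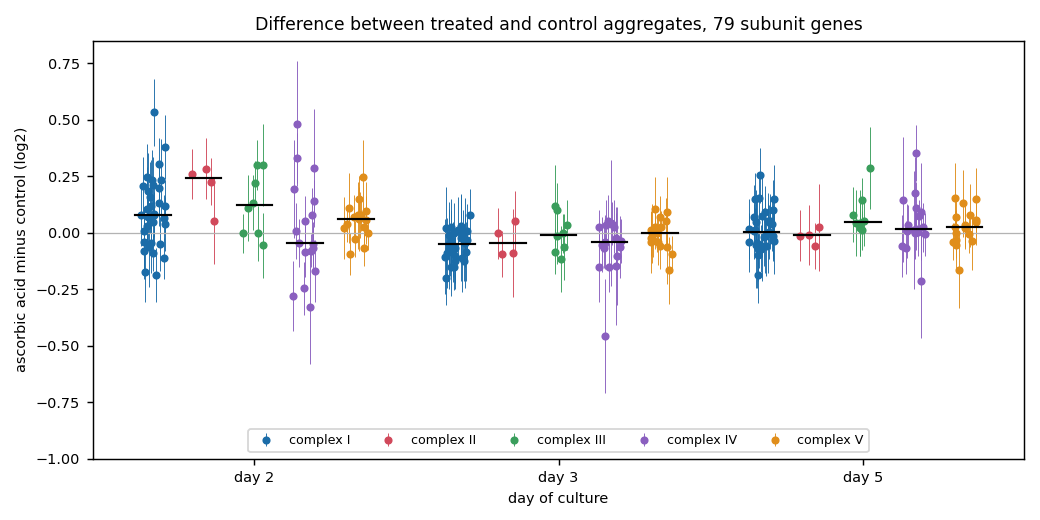
Difference between aggregates with ascorbic acid and controls (log2) for each of 79 subunit genes at days 2, 3 and 5, coloured by complex, with standard errors and a black bar at the median of each complex. Points crowd around 0 on each day, and complex II at day 2 has the median farthest from it, 0.24.

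Treated and control arrays of a day and replicate number deviated together, with r of 0.178, 0.224 and 0.302 at day 2. The labels do not say that same-numbered arrays share a culture, so the pairing is inferred from these data. On that footing each treated array was also compared with the same-numbered control of its day, in a fit on 9 pairs. This paired fit called 3 of 79 members at day 2, all higher with ascorbic acid, beside 2.64% of all genes (2.11% higher, 0.539% lower). At day 3 it called 0 (0.198% of all genes, 0.0934% higher and 0.104% lower, with 3 members at an unadjusted p under 0.05) and at day 5 it called 0 (0.956%, 0.780% higher and 0.176% lower, with 5). For the average it called 1 (1.94%, 1.45% higher and 0.495% lower), and for the difference between days 0 (0.511%, with 11 at an unadjusted p under 0.05).

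Ndufb1, an accessory complex I subunit, read 7.14, 7.04 and 7.45 in day 2 controls and 7.54, 7.65 and 8.04 in the same-numbered treated arrays. Treated arrays lay above all controls, by 0.53 ± 0.11 (paired adjusted p = 0.0158; unpaired 0.479). Ndufs1 read 9.92, 9.38 and 9.86 against 10.11, 10.00 and 10.19, a difference of 0.38 ± 0.10 (paired adjusted p = 0.049; unpaired 0.581). Sdhb read 10.51, 10.37 and 10.43 against 10.79, 10.72 and 10.65, a difference of 0.28 ± 0.07 (paired adjusted p = 0.0435; unpaired 0.676). Each was higher in 3 of 3 pairs, and the groups did not overlap. On the other days the same genes differed by -0.11 and 0.15 (Ndufb1), 0.03 and 0.07 (Ndufs1) and 0.05 and -0.01 (Sdhb).

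The day 2 calls depended on the pairs and the scaling. Without pair 1 or pair 2 the count was 0, and without pair 3 it was 11, beside 89, 209 and 1212 of all genes. With all pairs 481 genes were called. After renewed quantile normalisation only Ndufb1 was called, at 0.55. Day 2 controls also had Actb 3′ minus 5′ differences of 0.94 to 1.40 against 0.91 to 1.08 in treated aggregates. The 1.40 was control replicate 2, which held the lowest day 2 control readings of Ndufb1 (7.04), Ndufs1 (9.38) and Sdhb (10.37). The part of RNA quality in the treated minus control differences was not tested.

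Uqcrq was the member called for the average over days in the paired fit. That fit used its brightest probe set, and its 3 dimmer ones were not fitted in pairs. Treated arrays read 10.38, 10.33 and 10.75 at day 2, 10.12, 10.31 and 10.64 at day 3 and 9.82, 9.80 and 10.00 at day 5. Their controls read 10.16, 10.00 and 10.40, then 10.10, 10.14 and 10.47, then 9.53, 9.52 and 9.71. The treated array was higher in 9 of 9 pairs, by 0.24 ± 0.05 on average (paired adjusted p = 0.00943; unpaired 0.964), and at day 5 the groups did not overlap. Without pair 3 of day 3 the count was 0, and without pair 3 of day 2 it was 2, beside 208 and 648 of all genes. With all pairs 353 genes were called.

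The direction over the members at day 2 turned with the scaling. As deposited, 54 members read higher with ascorbic acid and 25 lower, with a median of 0.07 against -0.01 over all genes, and 29 were higher in all 3 pairs (36.7%, against 16.6% of all genes). After renewed quantile normalisation 36 read higher and 43 lower, with a median of -0.01, and 16 were higher and 16 lower in all 3 pairs. After median centring 58 read higher. At day 3 the deposited values gave 25 higher and 53 lower (median -0.03), and at day 5 48 and 30 (median 0.02). These days use separate arrays, and none of these counts is a test.

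Genes that serve the chain without carrying its names were taken from lists chosen with earlier results known. Of 43 factors that assemble the complexes, 12 fell and 1 rose from day 3 to day 5 in controls, beside the 9.24% and 9.08% of all genes. Coa7 fell by 1.11 ± 0.15, Ndufaf4 by 1.07 ± 0.15 and Coa6 by 0.99 ± 0.17. Ndufaf4, an assembly factor of complex I, read 10.32, 10.36 and 9.90 at day 3 and 8.97, 9.21 and 9.19 at day 5. It had risen by 0.76 ± 0.15 from day 0 to day 2 and by 0.53 ± 0.15 from day 2 to day 3. From day 0 to day 2, 4 assembly factors rose and 1 fell, and from day 2 to day 3, 4 rose and 0 fell. These were 11.6% and 9.30% of the list, against 11.8% and 5.81% of all genes.

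Of 9 subunits and electron carriers outside the name rule, 3 fell and 0 rose from day 3 to day 5. Cyc1, the cytochrome c1 of complex III, fell by 0.55 ± 0.11 and Cycs, cytochrome c itself, by 0.45 ± 0.12. Cox4i1, a core nuclear subunit of complex IV that the rule's spelling misses, fell by 0.38 ± 0.10 from day 0 to day 2 and stood at 12.41 ± 0.15 (SD) in day 5 controls, while Cox4i2 lay between 6.41 and 6.64 in all group means. Among 23 genes of mitochondrial biogenesis and mitochondrial DNA, 5 fell and 1 rose from day 3 to day 5 (26.1% of the list against 18.3% of all genes). Tfam, which packages mitochondrial DNA, ran from 9.87 ± 0.22 at day 0 to 10.44 ± 0.10 in day 3 and 10.01 ± 0.19 in day 5 controls. Ppargc1a, a coactivator of mitochondrial biogenesis, stayed near the low end of the signals, with group means of 4.13 to 4.41.

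Counts for fuel supply genes are set against the 11.8% of all genes called from day 0 to day 2 and the 18.3% from day 3 to day 5. Of 25 genes of the tricarboxylic acid cycle and pyruvate entry, 5 fell and 0 rose from day 0 to day 2 (20% of the list), among them Pdk4 by 1.30 ± 0.23 and Pcx by 0.82 ± 0.17. From day 3 to day 5, 4 fell and 1 rose (20%, near the share of all genes). The falls included Pdk1, a kinase that restrains pyruvate entry, by 1.37 ± 0.19 and Idh3a by 1.04 ± 0.11. Of 20 glycolysis genes, 5 fell and 1 rose from day 0 to day 2 (30%), and 3 fell and 4 rose from day 3 to day 5 (35%). Slc2a3, a glucose transporter, fell by 1.75 ± 0.23 in the first of these steps and rose by 1.53 ± 0.23 in the second. Of 17 mitochondrial carriers and channels, 3 fell and 1 rose from day 3 to day 5 (23.5%). The ADP/ATP carriers went opposite ways: Slc25a5, the form of growing cells, read 12.55, 12.62 and 12.68 and then 11.93, 11.86 and 12.09, and Slc25a4, the heart and muscle form, read 11.39, 11.45 and 11.46 and then 12.41, 12.39 and 12.33. Slc25a5 fell by 0.66 ± 0.08 (adjusted p = 5.3e-06) and Slc25a4 rose by 0.94 ± 0.13 (adjusted p = 3.1e-05). No gene of these mitochondrial and glycolysis lists was called for ascorbic acid at days 2, 3 or 5 in the unpaired limma fit. At day 2, where 7.37% of all genes had an unadjusted p under 0.05, so did 4 assembly factors, 2 genes each of biogenesis and the tricarboxylic acid cycle, and 7 of 20 glycolysis genes. At day 3, where 1.48% of all genes did, so did 7 glycolysis genes, 1 of the tricarboxylic acid cycle and 0 assembly factors, and at day 5 0 glycolysis genes did.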

How the data were processed

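Total RNA (100 ng) was labelled and hybridised to Affymetrix mouse arrays, 1 per sample. RMA, named in the submitters' processing notes, gave the log2 values as deposited; it corrects background, normalises by quantiles and summarises probe sets. Its version, and any genome build, are not given in the sources used here. Values ran from 2.51 to 14.51, with array medians of 6.05 to 6.19. Of 45101 probe sets, 34958 had 1 symbol in the platform annotation, 932 several and 9211 none. The members matched RefSeq by Entrez identifier in 79 of 79 cases, with 0 symbols changed. No arrays were identical. Arrays give no read depth, so their number limits the precision. The labels call replicates biological and name no separate cultures, so p-values measure the spread between these samples.

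Group means were compared with limma 3.58.1 under R 4.3.3 (lmFit and trended eBayes), over 7 group means, with Benjamini-Hochberg adjustment over 18194 genes. The fit was also run on simulated data with independent noise for each gene and array. Such data lack the deviations that genes share on an array and that paired arrays share. Same-numbered treated and control arrays of a day had correlated deviations (r of 0.178 to 0.679 in 9 of 9 pairs, above 0.1), so the paired fit stands beside the unpaired. Between successive days r ran from -0.07 to 0.26, so days were left unpaired. Promoters, with 13 members not in the table, came from RefSeq, with 95% Wilson intervals. The members and lists were chosen with earlier results of these data known. Named members are all those called in a comparison, or the 6 largest rises and falls where over 12 were called, plus tissue isoforms and core subunits whatever their test. From the other lists they are up to 4 called genes with the smallest p in a comparison, plus Pou5f1, Cycs, Cyc1, Cox4i1, Cox4i2, Tfam and Ppargc1a. Alternatives were the scaling, probe set rule, filter, variance model, array weights, arrays fitted, blocks and omission of each replicate. The pairs left out of the paired fit, and its rescaling, were chosen after seeing the data.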

Additional observations from a re-analysis of the deposited data

How the results depend on the processing

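Counts of members called are given here where they moved by over 1.5 times. The 10 calls from day 0 to day 2 in controls became 17 after renewed quantile normalisation, 27 with array weights and 0 in a fit on the arrays compared alone. The 3 calls from day 2 to day 3 became 28 with array weights and 5 on the arrays compared, and the 31 from day 0 to day 5 became 13 on the arrays compared. In treated aggregates the 15 calls from day 0 to day 2 became 3 on the arrays compared. The 2 from day 2 to day 3 became 1 with the mean of all probe sets, 1 with median centring, 1 with genes above the 25th percentile, 8 with array weights and 4 on the arrays compared. The 9 from day 3 to day 5 became 5 with median centring. For ascorbic acid at day 2, array weights gave 10 calls, 6 higher and 4 lower, against 0. Calls over all genes in these fits are not given here, so the shifts are not particular to the members, and their cause was not tested.

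With the replicate number as a block over all days, which the pairing check did not bear out, the day 0 to day 2 calls became 16 and the day 2 to day 3 calls 6. The paired fit gave 3 members at day 2 and 1 for the average against 0 in each unpaired, and after renewed quantile normalisation it gave 1 and 2. It changed no other count for ascorbic acid.

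Leaving out each replicate gave 5 to 24 calls from day 0 to day 2, 1 to 5 from day 2 to day 3, 6 to 11 from day 3 to day 5 and 22 to 34 from day 0 to day 5 in controls. In treated aggregates it gave 7 to 24, 0 to 1 and 3 to 9 for the first 3 of these. The unpaired ascorbic acid counts stayed at 0 to 0, and the paired ones ran from 0 to 11 at day 2, 0 to 2 for the average and 0 to 0 otherwise. No named member changed direction while called. YY1 letters stood in 1.41% of member promoters when only bases before the start were searched.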

Other observations

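Some subunits lay outside the count because their probe sets carry several symbols. The Ndufb4 probe set with 1 symbol was near the low end of the signals, while 2 probe sets shared by Ndufb4, Ndufb4b and Ndufb4c read 10.61 ± 0.45 and 10.45 ± 0.55 (SD, n = 3) at day 0 and 10.79 ± 0.22 and 10.66 ± 0.29 in day 5 controls. The shared probe sets cannot be assigned to 1 gene. A probe set of Ndufa11 and Ndufa11b read 10.76 ± 0.21 at day 0 and 10.39 ± 0.20 in day 5 controls. A probe set of Ndufs6 and Ndufs6b read 10.61 ± 0.07 and 10.49 ± 0.04, and one of Ndufs5 and a pseudogene read 9.96 ± 0.32 and 9.88 ± 0.14.

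Among genes of mitochondrial peroxide and superoxide defence, Sod2, the superoxide dismutase of the matrix, fell by 0.89 ± 0.18 from day 0 to day 2 and by 1.41 ± 0.18 from day 0 to day 5 in controls. Of 9 such genes, 3 fell and 2 rose in the first of these, beside 11.8% of all genes called, and 3 fell and 0 rose over the whole span, beside 29.9%.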
